A study of Mus musculus with 13 samples.

Results

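The genes described here encode the enzymes of cholesterol and fatty acid synthesis and the proteins that control them. All 34 genes of the list occurred in the deposited count table, of 16961 genes in all (Msmo1 under its older symbol Sc4mol). They were followed across the 8 cell classes that the authors gave and along the oligodendrocyte lineage. They were chosen by name, as a list of genes of these pathways.

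Single cells of the medial amygdala, part of the forebrain circuit for social behaviour, came from naive mice of the C57BL/6J strain, and gave 6 libraries from males and 7 from females. The mice were 9 weeks old, or 8 weeks old for male replicates 3 and 5 and for replicate 3 of the females. Every mouse was kept on a reversed light cycle, had been housed alone before dissociation, and carried no transgene or treatment that the labels name. Act-seq, a dissociation that limits new transcription, was followed by Drop-seq, in which each captured mRNA is counted by its unique molecular identifier (UMI); nothing in the labels says that each sample is an animal of its own, so p-values measure the spread between libraries, which may be technical.

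Cholesterol is built from acetyl-CoA through mevalonate to the isoprenoid farnesyl diphosphate, which is joined to squalene, closed into lanosterol and trimmed to cholesterol. SREBP transcription factors raise these genes and those of fatty acid synthesis when sterols are scarce, SCAP escorts the SREBPs to their activation, and INSIG proteins hold them back. Sterols hardly cross the blood-brain barrier, so the brain makes its own: oligodendrocytes need it for myelin, astrocytes pass it to neurons, and neurons rid themselves of it through CYP46A1, which makes 24-hydroxycholesterol.

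After filtering, 24527 cells were kept (11542 male, 12985 female), with 3718151 to 7874074 UMIs per library. The classes held 4163 oligodendrocyte precursors (OPC), 463 newly formed oligodendrocytes (named OPC-OL in the table, 12 to 56 cells per library), 3887 oligodendrocytes (OL), 6445 astrocytes, 3615 neurons, 3727 microglia, 1463 endothelial cells and 764 mural cells. In each class, every detected gene of its own marker list had its highest level there. Counts were summed per library and class, and a level is a gene's share of all UMIs of the class in CPM, given for the lowest, the median and the highest library. Of the libraries' cell barcodes, 19 occurred in more than 1 library among the kept cells. In summed cells, a class with less RNA per cell for a gene and one with fewer cells that hold it cannot be told apart.

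The stretches before the start of 4 members are shown because they differ in the short motifs that SREBPs and their partner NF-Y are known to bind, and these genes recur below. The letters are the 250 bases before the start of each gene from RefSeq on GRCm38.p6, read 5′ to 3′ on the gene's strand. They lie at chr13:119690101-119690350 (plus strand) for Hmgcs1, chr8:64733579-64733828 (minus strand) for Msmo1, chr11:120824548-120824797 (minus strand) for Fasn and chr13:108214154-108214403 (plus strand) for Elovl7. Capitals mark the core of a sterol regulatory element (TCACNCCAC or GTGGNGTGA, N being any base) and the CCAAT box (CCAAT or ATTGG). Hmgcs1 makes HMG-CoA in the cytosol, Msmo1 removes methyl groups from sterol intermediates, Fasn builds palmitate, and Elovl7 lengthens fatty acids.
Hmgcs1: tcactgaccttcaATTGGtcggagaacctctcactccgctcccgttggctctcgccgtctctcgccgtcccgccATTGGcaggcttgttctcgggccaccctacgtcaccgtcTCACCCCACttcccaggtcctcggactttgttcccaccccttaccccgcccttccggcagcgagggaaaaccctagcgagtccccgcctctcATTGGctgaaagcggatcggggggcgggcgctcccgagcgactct
Msmo1: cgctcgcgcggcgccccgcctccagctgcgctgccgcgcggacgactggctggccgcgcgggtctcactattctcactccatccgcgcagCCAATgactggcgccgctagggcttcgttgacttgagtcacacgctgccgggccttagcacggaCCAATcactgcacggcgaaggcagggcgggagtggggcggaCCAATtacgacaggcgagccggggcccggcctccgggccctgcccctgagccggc
Fasn: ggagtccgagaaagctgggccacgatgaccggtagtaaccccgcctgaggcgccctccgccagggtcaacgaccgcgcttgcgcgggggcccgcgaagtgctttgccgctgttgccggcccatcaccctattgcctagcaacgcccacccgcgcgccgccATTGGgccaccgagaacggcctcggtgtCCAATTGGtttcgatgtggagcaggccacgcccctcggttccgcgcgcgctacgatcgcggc
Elovl7: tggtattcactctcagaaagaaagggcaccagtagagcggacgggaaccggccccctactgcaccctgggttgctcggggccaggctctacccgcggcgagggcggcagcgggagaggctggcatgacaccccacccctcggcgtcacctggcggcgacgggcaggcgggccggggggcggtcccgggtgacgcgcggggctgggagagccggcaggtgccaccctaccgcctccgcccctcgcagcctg
Promoters of 28 of the 34 members were in the RefSeq table. The window searched ran from 250 bases before to 50 bases after the start, on both strands, and CCAAT and the sterol element share no letters in these matches. The sterol element core was found in 1 of the 28 members, Hmgcs1, where it read TCACCCCAC and began 137 bases before the start, and in 1.44% of 27025 genes. A CCAAT box was found in 22 of the 28 members and in 41.1% of the 27025 genes. The Elovl7 window held neither. A GC box (GGGCGG or CCGCCC), also searched for, was found in 23 of the 28 members and in 38.2% of the 27025 genes. Of other members named below, the gene bodies in the GENCODE M21 annotation of GRCm38 are Scd1 at chr19:44394455-44407879, Srebf1 at chr11:60199089-60222581, Sqle at chr15:59315077-59331192, Fads2 at chr19:10062765-10101746 and Fads1 at chr19:10182888-10196877. Another annotated gene lies over the end of Mvd, Fdps, Fdft1, Lss, Cyp51, Srebf1 and Elovl1, where Drop-seq reads fall, and whether counting used the strand is stated nowhere in the labels, so their counts may hold reads of that neighbour.

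Which classes stood high in these genes was read first from the median CPM of the 13 libraries. Astrocytes held the highest median for 17 of the 34 members, oligodendrocytes for 7, neurons for 4, newly formed oligodendrocytes for 3, OPC for 2 and microglia for 1. Microglia held the lowest median for 18 members, endothelial cells for 7 and mural cells for 6. Levels here are on total UMIs, of which oligodendrocyte markers alone took a median of 121413 CPM in oligodendrocytes. Close ranks, such as Insig1 at medians of 207 CPM in astrocytes and 177 CPM in oligodendrocytes, may thus depend on the scale. The libraries of the highest class did not overlap those of any other class for 9 members, 6 of them astrocyte genes. These counts of highest, lowest and non-overlapping classes describe the members alone, as no share of all genes was set beside them.

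**Figure D1:**
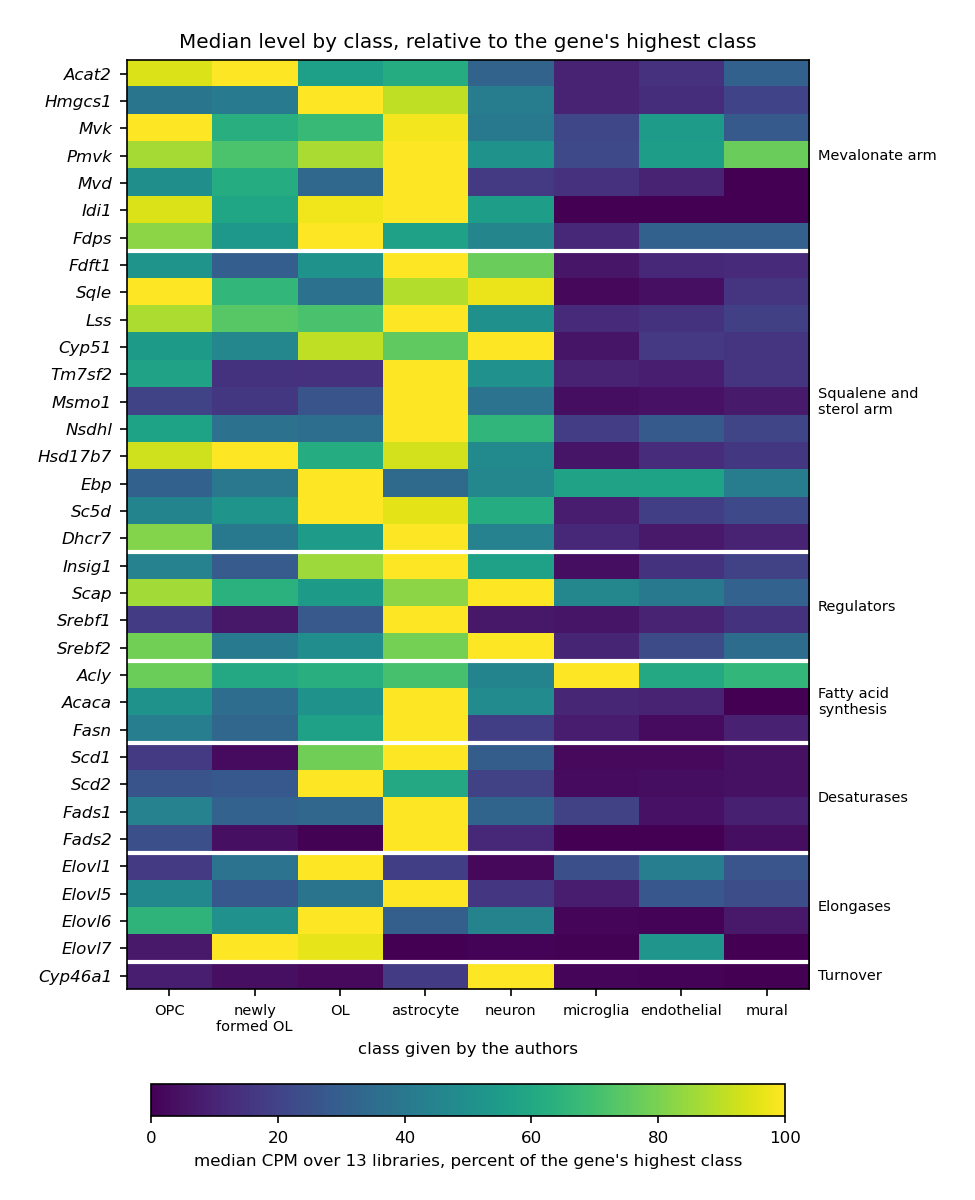
Each square is a member gene's median CPM over the 13 libraries in one class, as a percent of the gene's own highest class; rows follow the pathway and columns are the 8 classes. Astrocytes hold the highest median for 17 genes, and the microglia, endothelial and mural columns are dark for most genes, and Pmvk in mural cells, at 77.1% of its highest class, is the palest square there outside Acly.

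Astrocytes were set against neurons because astrocytes are known as a source of sterol for neurons. Of the 33 members tested, 24 were higher and 7 lower in astrocytes at a Benjamini-Hochberg adjusted p under 0.05 (edgeR quasi-likelihood test with the library as a block). Of the 12200 genes tested, 37.7% were called higher and 38.3% lower. The median log2 difference was 0.90 over the members and -0.01 over all genes. The authors drew the classes from these cells, so these p-values speak only of the spread between libraries. Idi1, which makes the isoprenoid dimethylallyl diphosphate, had 332 UMIs in all cells kept and was too low to test.

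In the mevalonate arm, 5 of 6 tested members were higher in astrocytes. Hmgcs1 had 233 CPM in the lowest, 314 in the median and 371 in the highest astrocyte library, against 95.3, 146 and 203 CPM in neurons. No neuron library reached the lowest astrocyte library. Mvd, which decarboxylates mevalonate diphosphate, had a median of 59.3 CPM in astrocytes and 10.0 CPM in neurons, a log2 difference of 2.54 ± 0.16 (SE). Fdps, which makes farnesyl diphosphate, did not pass the test, with a log2 difference of 0.16 ± 0.13.

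Of the 11 genes from squalene onward, 8 were higher and 2 lower in astrocytes. Msmo1 had 627, 843 and 989 CPM in astrocytes, against 238, 322 and 358 CPM in neurons, and the groups did not overlap (log2 difference 1.37 ± 0.12). Cyp51, which demethylates lanosterol, had medians of 172 CPM in astrocytes and 227 CPM in neurons (log2 difference -0.39 ± 0.09), and Ebp, a sterol isomerase, was lower too, by -0.53 ± 0.12. Sqle, the squalene epoxidase, had medians of 155 CPM in astrocytes and 170 CPM in neurons (log2 difference -0.08 ± 0.10) and did not pass the test.

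The SREBP regulators split by class. Srebf1, whose SREBP-1c form is known for driving fatty acid genes, had 259, 318 and 454 CPM in astrocytes, against 5.01, 20.7 and 40.8 CPM in neurons (log2 difference 3.94 ± 0.10). The astrocyte libraries all lay above every library of every other class. Srebf2, known for driving sterol genes, went the other way, with medians of 92.4 CPM in astrocytes and 117 CPM in neurons (log2 difference -0.45 ± 0.09), as did Scap, at -0.39 ± 0.09. Insig1, itself a target of the SREBPs, was higher in astrocytes by 0.80 ± 0.09.

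Genes of fatty acid synthesis and desaturation were higher in astrocytes in 7 of 7 tests. Fads2, the delta-6 desaturase of polyunsaturated fatty acids, had 201, 262 and 289 CPM in astrocytes, against 10.9, 30.4 and 59.9 CPM in neurons (log2 difference 2.98 ± 0.11). Fads1, the delta-5 desaturase, and Fasn differed by 1.71 ± 0.09 and 2.35 ± 0.10 on the log2 scale. Scd1 and Scd2, which place the double bond in oleate, differed by 1.79 ± 0.14 and 1.61 ± 0.07, and Acly, which makes cytosolic acetyl-CoA, by 0.48 ± 0.10. For Fads2, Fasn, Scd1 and Scd2, no neuron library reached the lowest astrocyte library.

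Of the 4 elongases, 2 were higher and 2 lower in astrocytes. Elovl5, which works on polyunsaturated chains, and Elovl1, which makes very long saturated chains, were higher in astrocytes by 2.68 ± 0.08 and 2.99 ± 0.16 on the log2 scale. Elovl6, which takes palmitate to stearate, was lower by -0.64 ± 0.10. Elovl7 was lower by -0.86 ± 0.32 but had medians of only 1.54 CPM in astrocytes and 3.46 CPM in neurons, which are 0.374% and 0.839% of its level in newly formed oligodendrocytes. The oligodendrocyte marker list had 0.484% and 0.683% of its oligodendrocyte level in the same classes, and what free RNA adds to these low values was not tested.

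Cyp46a1, the neuronal cholesterol 24-hydroxylase, had 38.6, 56.5 and 72.3 CPM in astrocytes, against 210, 318 and 400 CPM in neurons. Every neuron library lay above every library of the other classes, and the log2 difference was -2.56 ± 0.09. Neuron markers summed to a median of 315 CPM in astrocytes and 28171 CPM in neurons, and astrocyte markers to 36766 CPM in astrocytes and 2349 CPM in neurons.

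Each class was also set against the mean of the other 7, and the share of all genes called in the same direction is given beside each count. In astrocytes 29 members were higher (36.7% of all genes) and 3 lower (33.9%), and in oligodendrocytes 30 were higher (37.6%) and 1 lower (35.5%). OPC had 23 higher (44.1%) and 2 lower (25.4%), and newly formed oligodendrocytes 10 higher (29.2%) and 6 lower (29.9%). Neurons had 22 higher (41.9%) and 7 lower (35.2%). In microglia 3 members were higher (37.1%) and 29 lower (38.6%), in endothelial cells 3 higher (28.7%) and 27 lower (39.5%), and in mural cells 0 higher (23.1%) and 26 lower (31.7%). The count of 0 in mural cells came from edgeR, was also 0 at an unadjusted p under 0.05, and was 1 in DESeq2. No share of all genes at the unadjusted level stands beside it. The largest differences above 0 in these 3 classes were Acly in microglia, at 0.86 ± 0.08, and Elovl7 in endothelial cells, at 3.78 ± 0.11 on the log2 scale.

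The oligodendrocyte lineage was then followed from OPC to newly formed oligodendrocytes to oligodendrocytes. At the first step 3 of 33 tested members were higher and 11 lower in newly formed oligodendrocytes, where 24.5% of the 10113 genes were higher and 35.1% lower. At the second step 24 were higher and 1 lower in oligodendrocytes, where 31.6% of genes were higher and 32.5% lower. The members' median log2 difference was -0.25 at the first step, where it was -0.11 over all genes, and 0.86 at the second, where it was -0.01. Scaling by total UMIs alone in place of TMM moved the median of all genes by -0.12 at the first step and by -0.52 at the second. The counts of members were then 2 higher and 17 lower at the first step, where 1956 of the 10113 genes were higher and 4163 lower. At the second step they were 17 higher and 5 lower, where 1597 of the genes were higher and 5744 lower. The differences below are on the TMM scale, so they are relative to the bulk of the genes.

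In the mevalonate arm 3 of 6 tested members were higher and 0 lower at the second step. At the first step edgeR called 0, and 0 had an unadjusted p under 0.05, with no share of all genes at that level beside it. Hmgcs1 had 105, 135 and 219 CPM in OPC, 44.2, 143 and 257 CPM in newly formed oligodendrocytes and 224, 347 and 501 CPM in oligodendrocytes. It was higher in oligodendrocytes than in newly formed oligodendrocytes in 13 of 13 libraries (log2 difference 1.76 ± 0.20, edgeR adjusted p 2.9e-08). Pmvk, the phosphomevalonate kinase, and Fdps were called higher as well, by 0.85 ± 0.14 and 1.27 ± 0.22.

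From squalene onward, 5 of 11 members were lower at the first step and 8 were higher at the second. Ebp, an isomerase that shifts a double bond of the sterol ring, and Sc5d, a desaturase that adds one, had the largest second-step differences of this arm, 1.90 ± 0.16 and 1.52 ± 0.10. Sqle behaved otherwise, with medians of 175 CPM in OPC, 116 CPM in newly formed oligodendrocytes and 65.1 CPM in oligodendrocytes. It was lower in newly formed oligodendrocytes than in OPC by -0.42 ± 0.17, and lower in oligodendrocytes than in OPC by -0.79 ± 0.12. Its second step was not called on the TMM scale, though its CPM was lower in oligodendrocytes than in newly formed ones in 13 of 13 libraries. Tm7sf2, a sterol reductase, was lower in oligodendrocytes than in OPC by -1.11 ± 0.16.

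A dip in the newly formed cells was seen for 7 of the 33 members, which were lower there than in OPC and lower there than in oligodendrocytes, a pattern held by 11.5% of all genes tested. They were Fdft1, Nsdhl, Dhcr7, Srebf1, Srebf2, Scd1 and Elovl5, and 5 of them (Fdft1, Dhcr7, Srebf1, Scd1 and Elovl5) kept both calls under scaling by total UMIs alone. Scd1 had 29.3, 40.5 and 52.0 CPM in OPC, 0, 7.25 and 16.3 CPM in newly formed oligodendrocytes and 166, 188 and 284 CPM in oligodendrocytes. The 3 classes did not overlap in any library, and the count behind the newly formed class was 19 UMIs, with 4 libraries at 0. The second-step log2 difference was 5.20 ± 0.18 (edgeR adjusted p 2e-45), and the first-step one was -2.29 ± 0.27.

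Srebf1 followed the same course, with 45.3, 55.9 and 72.9 CPM in OPC, 6.28, 21.1 and 46.7 CPM in newly formed oligodendrocytes and 70.7, 88.7 and 112 CPM in oligodendrocytes. It was lower in newly formed oligodendrocytes than in OPC in 13 of 13 libraries (log2 difference -1.31 ± 0.18), and higher in oligodendrocytes than in newly formed oligodendrocytes in 13 of 13 (2.46 ± 0.16). Insig1 was higher in oligodendrocytes than in newly formed oligodendrocytes by 1.89 ± 0.15 and did not pass at the first step (-0.31 ± 0.17).

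Oligodendrocyte markers summed to medians of 1032 CPM in OPC, 43432 CPM in newly formed oligodendrocytes and 121413 CPM in oligodendrocytes. Markers of newly formed cells summed to 2229 CPM in OPC, 13731 CPM in newly formed oligodendrocytes and 668 CPM in oligodendrocytes. For Scd1 and Srebf1 the newly formed class thus lay below both neighbours while its oligodendrocyte markers lay between them.

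Elovl7, Elovl1 and Scd2 took another course. Elovl7 had 19.8, 28.2 and 46.8 CPM in OPC, 333, 413 and 572 CPM in newly formed oligodendrocytes and 302, 398 and 458 CPM in oligodendrocytes. All 13 newly formed libraries lay above every OPC library (log2 difference 3.99 ± 0.10, edgeR adjusted p 2.3e-50), while the newly formed and the mature libraries overlapped. The second step gave 0.42 ± 0.07 on the TMM scale and -0.10 under scaling by total UMIs alone, so its direction depends on the scale. Elovl1 was higher at both steps, by 1.17 ± 0.13 and 1.86 ± 0.10. Scd2 had medians of 1410.1 CPM in OPC, 1479 CPM in newly formed oligodendrocytes and 5395 CPM in oligodendrocytes, and its second step was 2.43 ± 0.06; its first step, 0.16 ± 0.06, was not called under scaling by total UMIs alone.

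Fads2 was the member that was lower at both steps. It had 51.2, 63.8 and 70.2 CPM in OPC, 0, 10.9 and 27.1 CPM in newly formed oligodendrocytes and 0, 1.59 and 4.72 CPM in oligodendrocytes. No oligodendrocyte library reached the lowest OPC library, and the log2 difference between these classes was -3.92 ± 0.21. The oligodendrocyte median was 0.606% of the astrocyte level of Fads2, and astrocyte markers summed to 0.753% of their astrocyte level in oligodendrocytes. Its partner desaturase Fads1 had medians of 133 CPM in OPC and 99.4 CPM in oligodendrocytes, a log2 difference of 0.24 ± 0.10 that was called lower under scaling by total UMIs alone.

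**Figure D2:**
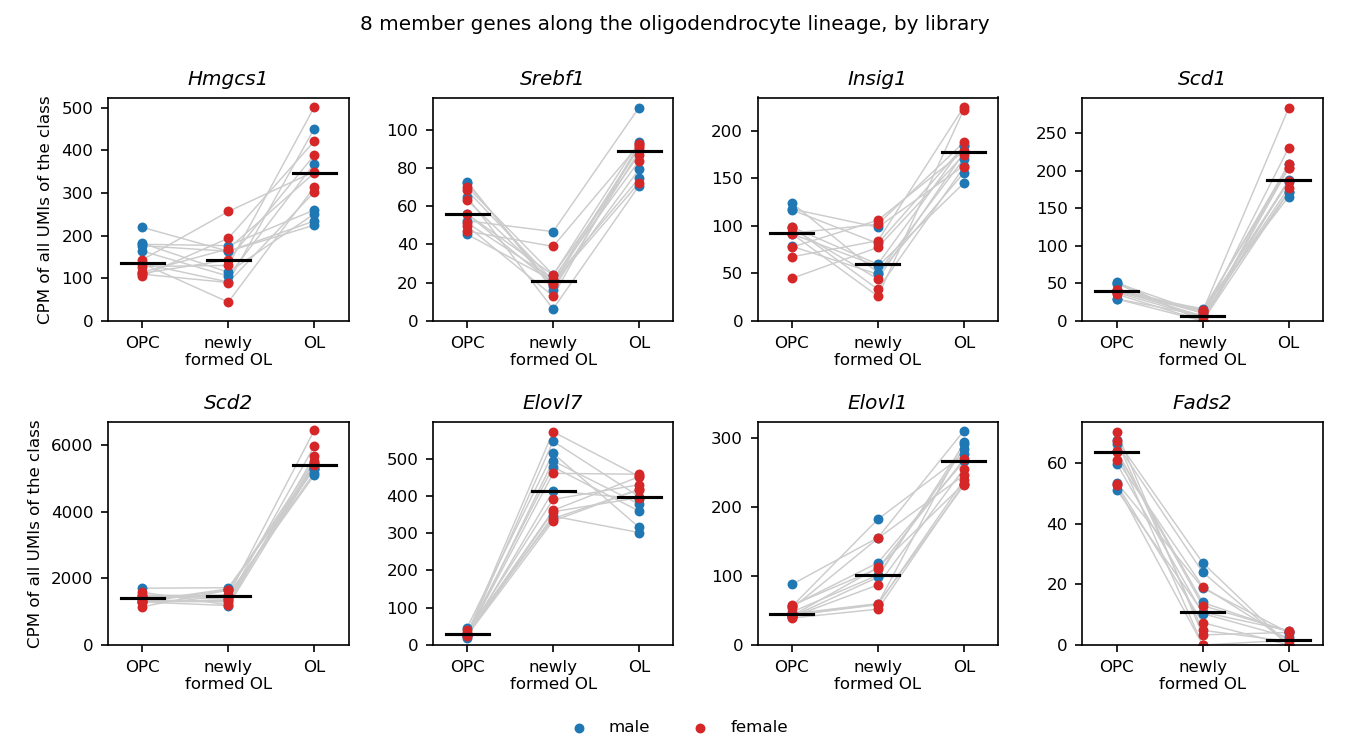
CPM of 8 members (vertical axis, linear) in OPC, newly formed oligodendrocytes and oligodendrocytes; each point is a library, grey lines join the classes of one library, and black bars are medians over 13 libraries. Scd1 and Srebf1 are lowest in the newly formed class, Elovl7 is high from the newly formed class on, and Fads2 is near 0 in oligodendrocytes.

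Across the whole lineage, 21 members were higher and 4 lower in oligodendrocytes than in OPC, where 36.1% of all genes were higher and 43.7% lower. Under scaling by total UMIs alone 13 members were higher and 16 lower, where 1753 of the 10113 genes were higher and 7229 lower. The 13 called higher on both scales were Hmgcs1, Fdps, Cyp51, Ebp, Sc5d, Insig1, Srebf1, Fasn, Scd1, Scd2, Elovl1, Elovl6 and Elovl7. Acly, Lss, Elovl5 and Fads1 were called higher on the TMM scale and lower under total UMIs. The 4 called lower, Sqle, Tm7sf2, Fads2 and Cyp46a1, were lower on both. Cyp46a1, highest in neurons, had medians of 27.1 CPM in OPC and 7.99 CPM in oligodendrocytes. Neuron markers summed to medians of 1587 CPM in OPC and 144 CPM in oligodendrocytes. What neuron RNA adds to the difference of Cyp46a1 was not tested.

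Of 35 further genes of the pathways, chosen from the list of sterol transport and sensing genes and that of fatty acid and myelin lipid genes, 32 were tested in the lineage. At the first step 11 were higher (24.5% of all genes) and 14 lower (35.1%) in newly formed oligodendrocytes, and at the second 17 were higher (31.6%) and 9 lower (32.5%) in oligodendrocytes. Fa2h and Ugt8a, which make the hydroxylated galactolipids of myelin, were higher at both steps, by 2.44 ± 0.07 and 1.92 ± 0.10 at the first and by 1.55 ± 0.06 and 1.48 ± 0.09 at the second. Abca1 and Abcg1 export cholesterol: Abcg1 was lower at the first step by -1.73 ± 0.11 and higher at the second by 2.11 ± 0.11, while Abca1 was lower at the first by -0.58 ± 0.15. Acss2, which makes acetyl-CoA from acetate, was lower at the first step by -0.62 ± 0.18 and higher at the second by 1.87 ± 0.16.

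Male and female libraries were compared within each class. In OPC, 1 of 33 tested members passed the test, Hmgcs1, where 0.131% of 10651 genes were called. At an unadjusted p under 0.05 there were 18 of the 33, all higher in males, where 3.27% of all genes were higher in males at that level. The members' median log2 difference was 0.27 and that of all genes was -0.0017, and 28 of the 33 members were above 0. The list was drawn up with results of these data known, and the 18 are counts of unadjusted tests whose genes vary together over libraries.

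Hmgcs1 in OPC had 219, 176, 179.6, 164, 135 and 182 CPM in the male libraries, replicates 1 to 6, against 114, 105, 135, 143, 109.5, 112 and 128 CPM in the female libraries, replicates 1 to 7. All male libraries but replicate 5 lay above every female library. The means were 176 ± 27.5 CPM in males (SD, n = 6) and 121 ± 14.4 CPM in females (SD, n = 7), with a log2 difference of 0.53 ± 0.10 and an edgeR adjusted p of 0.00127. The call held in all 22 alternatives tried, with adjusted p up to 0.0301, reached without male replicate 1.

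The log2 differences of the 18 ran from 0.18 ± 0.09 for Elovl6 to 0.61 ± 0.19 for Msmo1, and they included 4 of the 6 tested members of the mevalonate arm, Insig1, Fasn and Fads1. From squalene onward, 10 of the 11 members had an unadjusted p under 0.05 in OPC, all higher in males, though none passed after adjustment by edgeR over all genes. Msmo1 had 133, 227 and 284 CPM in male OPC, against 109, 141 and 208 CPM in female OPC, and the sexes overlapped (log2 difference 0.61 ± 0.19, edgeR adjusted p 0.571). Male replicate 5, aged 8 weeks, was the lowest male library for both Hmgcs1 and Msmo1. Without it, Hmgcs1, Fdps, Fdft1, Sqle, Msmo1 and Nsdhl were called higher in males. The same 6 were called in the libraries of 9 weeks alone, which leave out male replicate 5 too. No share of all genes under these settings stands beside these calls. Without male replicate 3, also aged 8 weeks, Hmgcs1 was the only member called in OPC. Fads1 had 138 to 186 CPM in male OPC and 112 to 133 CPM in female OPC, which did not overlap, with an edgeR adjusted p of 0.0850.

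Depth and cell type markers of OPC were set beside these values. Median UMIs per cell were 2410 to 3682 in male libraries and 2264 to 3208 in female libraries, and OPC markers summed to medians of 7079 CPM in males and 6614 CPM in females. Astrocyte markers in OPC had medians of 1987 CPM in males and 1959 CPM in females, with 1852 to 2246 CPM over the male libraries and 1723 to 2005 CPM over the female libraries, and oligodendrocyte markers had medians of 955 CPM in males and 1033 CPM in females. Neuron markers in OPC had medians of 1660 CPM in males and 1565 CPM in females. Microglia markers in OPC had medians of 151 CPM in males and 260 CPM in females. The part of depth and of these markers in the sex difference was not tested. Of the 32 tested genes of the 2 further lists, 0 were called in OPC by edgeR, where 0.131% of 10651 genes were called. Of these 32, 2 had an unadjusted p under 0.05 in either direction, where 3.27% of all genes were higher in males. The share of all genes lower in males was not set beside it, so this count is not compared with that of the members.

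In astrocytes, 1 of 32 tested members passed, Sqle, where 1.16% of 9779 genes were called. It had 185, 162, 187, 175, 194 and 193 CPM in the male libraries, against 153, 133, 148, 137, 155, 119 and 131 CPM in the female libraries. The sexes did not overlap, and the log2 difference was 0.37 ± 0.09 with an edgeR adjusted p of 0.0196. The call was lost without male replicate 1 or 6 or female replicate 6 or 7 (edgeR adjusted p 0.0605 to 0.0702), with all deposited cells (0.129) and in libraries of 9 weeks alone (0.0719). At an unadjusted p under 0.05 there were 8 members, all higher in males, where 4.93% of all genes were higher at that level. Msmo1 did not pass in astrocytes, but was called higher in males with limma voom, with no filter on low counts, under scaling by total UMIs alone and without female replicate 2 (adjusted p 0.0317 to 0.0498).

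In oligodendrocytes, 0 of 32 members passed in edgeR (0.261% of 8422 genes called), and 9 had an unadjusted p under 0.05. Msmo1 was called lower in males by edgeR without male replicate 5 (adjusted p 0.00607), in libraries of 9 weeks alone (0.0277) and with no filter on low counts (0.0414). Of the 9, 8 were lower in males, where 3.75% of all genes were lower at that level, and 1, Elovl1, was higher, where 4.04% were. The count of 8 was 3 without female replicate 6 and 5 without male replicate 2 or without male replicate 3. The median log2 difference of the members was -0.17, against 0.0019 over all genes. Hmgcs1 had 224, 255 and 450 CPM in male oligodendrocytes, against 302, 350 and 501 CPM in female oligodendrocytes, and these overlapped. By edgeR, 0 members passed among 21 tested in newly formed oligodendrocytes (0.0889% of genes called), 12 in microglia (0.349%) and 12 in endothelial cells (1.28%). Likewise 0 passed among 4 tested in mural cells (0.123%) and 31 in neurons (0.0623%). The count at an unadjusted p under 0.05 was 0 in each of these 5 classes, with no share of all genes beside it.

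The difference between classes in the sex difference was tested itself. For Hmgcs1 the sex difference was larger in OPC than in astrocytes by 0.52 ± 0.11 on the log2 scale (edgeR adjusted p 0.0151, where 0.132% of 10567 genes were called), and astrocytes held 322 ± 33.6 CPM in males (SD, n = 6) and 311 ± 44.7 CPM in females (SD, n = 7). For Fads1 it was larger in OPC than in oligodendrocytes by 0.69 ± 0.13 (edgeR adjusted p 0.00362, where 0.119% of 10108 genes were called). For Hmgcs1 between OPC and oligodendrocytes the term was 0.90 ± 0.26 and did not pass (edgeR adjusted p 0.449). Between OPC and astrocytes the Sqle terms differed by -0.01 ± 0.12, with no call.

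**Figure D3:**
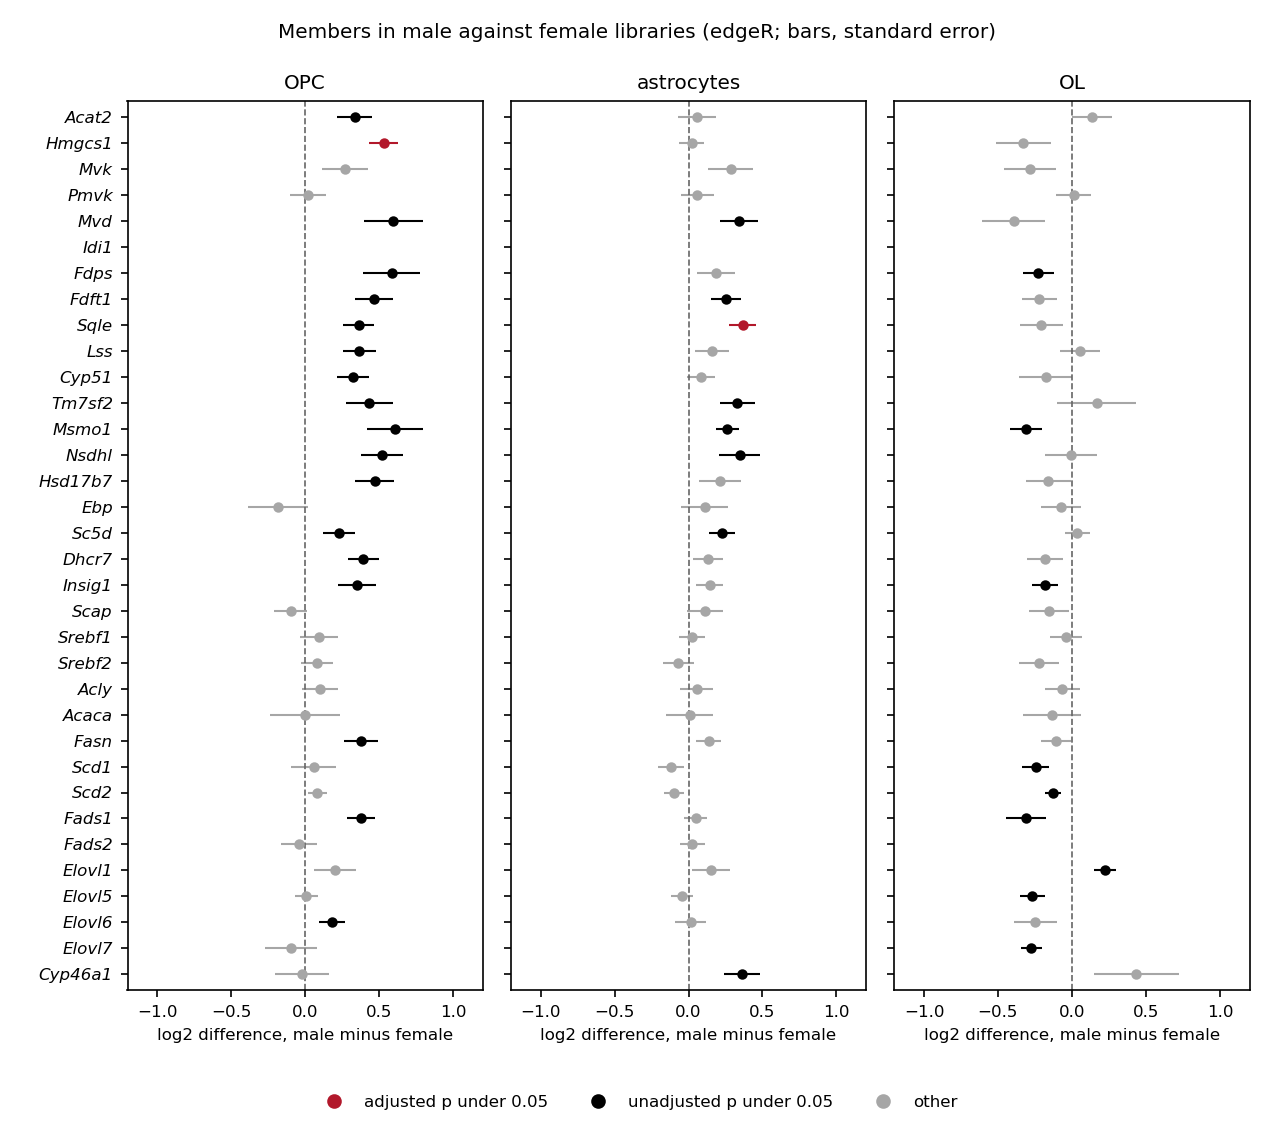
Log2 difference, male minus female, of each member in OPC, astrocytes and oligodendrocytes, with its standard error as a bar; red points passed the adjusted threshold, black points had an unadjusted p under 0.05, and genes with no point were not tested. Points of the sterol steps lie right of 0 in OPC for 10 of 11 genes, where the members' median is 0.27, and left of 0 for most of them in oligodendrocytes, where it is -0.17.

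**Figure D4:**
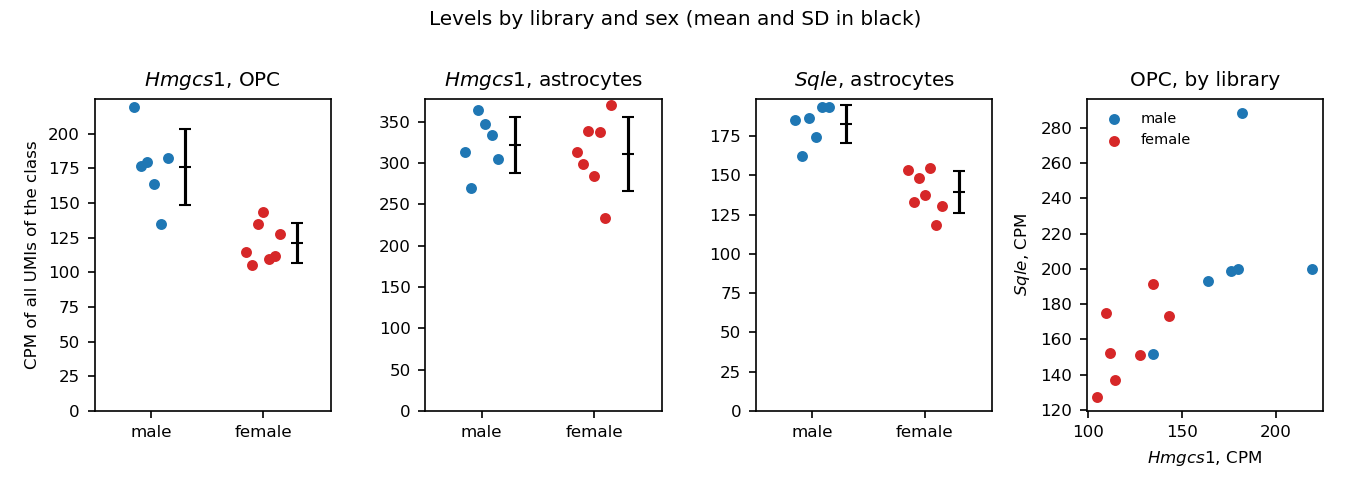
CPM of Hmgcs1 in OPC and astrocytes and of Sqle in astrocytes by sex, 1 point per library, with mean and SD in black, and at the right Sqle against Hmgcs1 in OPC. Male OPC libraries hold 135 to 219 CPM of Hmgcs1 and female ones 105 to 143 CPM, while the sexes overlap in astrocytes for Hmgcs1 and not for Sqle.

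How the members vary together was read over the 13 libraries within a class, on log2 CPM. In OPC the median correlation over the 528 pairs of 33 members was 0.30, and 0.25 after the mean of each sex was removed, against -0.00088 over pairs of all tested genes. It was 0.24 in astrocytes, 0.20 in oligodendrocytes, 0.15 in newly formed oligodendrocytes and 0.05 in neurons. These are descriptions, since all genes of a library share its depth and scaling. In OPC the member closest to the rest was Msmo1, with a median r of 0.66 to the others, and those farthest were Ebp, at -0.35, and Elovl5, at -0.24.

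Of 8 gene pairs planned, those with Idi1 were too low to enter in any class. The others gave 26 combinations with 5 classes, and 2 passed after Benjamini-Hochberg adjustment of permutation p-values. Hmgcs1 and Sqle in OPC had a Pearson r of 0.76 (permutation test, adjusted p 0.0248) and a Spearman rho of 0.87 (adjusted p 0.00676), and r was 0.80 without the 2 libraries farthest in Hmgcs1. Within males r was 0.53 and within females 0.63, both lower than over all 13 libraries. With the mean of each sex removed, r was 0.57 and the call was lost (permutation test, adjusted p 0.2003), as it was without female replicate 2 (0.1005), female replicate 6 (0.0545) or male replicate 3 (0.0951). Scd1 and Scd2 in neurons had an r of 0.83 (permutation test, adjusted p 0.0078) and a rho of 0.76. Without the 2 farthest libraries r was 0.64, and it was 0.83 within males and within females alike. The pair was not called without male replicate 3 (r 0.71, permutation test, adjusted p 0.0951). Astrocyte markers in neurons ran from 391 to 4916 CPM over the libraries, and both genes were higher in astrocytes. What astrocyte RNA adds to this r was not tested. Srebf1 and Fasn did not pass in any class, with r from -0.20 to 0.29.

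The same gene's level over libraries was set between classes too. Between OPC and oligodendrocytes the median r of the 32 members was -0.20 and 8 of 32 were positive. Over all genes tested in both, the median was 0.15 and 66.6% were positive. Between OPC and astrocytes the members' median was 0.19 with 24 of 32 positive, against 0.14 and 65.9% positive over all genes. The mean of each sex was not removed here, and the members' median sex difference was 0.27 in OPC and -0.17 in oligodendrocytes. Its part in these values was not tested. These pairs of classes share libraries, and the values have no test.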

How the data were processed

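Per the labels, Act-seq dissociated cells of the medial amygdala were captured by Drop-seq. The submitters' processing notes name mm10 as the build, STAR 2.5.0a and bcl2fastq 2.17.1.14; UMI collapsing and cell choice are given in no source used here. The authors deposited raw UMI counts (whole numbers, no normalization) per gene and cell, and cell names carry library and class.

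A minimum of 500 detected genes left 24808 of 43388 cells, and 281 doublets (1.13%) called by Scrublet in scanpy 1.11.5 within each library were removed. The table held 0 mitochondrially encoded genes. Counts were summed per library and class, leaving out sums of under 10 cells, so the library was the replicate. Levels are CPM of all UMIs of the class with no further scaling. Differences, two-sided p-values and standard errors (difference over the square root of F) come from edgeR 4.0.16 in R 4.3.3 (quasi-likelihood F test, TMM scaling, filterByExpr, robust dispersion), with p-values adjusted by Benjamini-Hochberg across every gene of the fit and called under 0.05. Class contrasts had the library as a block, the lineage had its own fit, and sex contrasts were fitted within each class, with no block. Correlations used log2 CPM, TMM-scaled with a prior count of 2, and 100000 permutations. The fits were tested on simulated data. Precision is limited by depth: 3718151 to 7874074 UMIs per library, and 12 to 56 newly formed cells. Intervals and errors cover no error of the class names.

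Members named in a contrast were up to 10 per direction with the largest difference among those called and at least 20 CPM in a group, members called between the sexes, and 12 fixed ones. Others named for a dip, a scale effect or a role were chosen after their values were seen. Members, lists, markers and tests were chosen with earlier results of these data known. Alternatives were DESeq2 1.42.0, limma 3.58.1 voom, other scalings and filters, all cells, doublets kept, libraries of 9 weeks alone, each library left out, the block added or dropped, and, added after seeing the data, newly formed libraries of at least 20 cells. Gene positions are from GENCODE M21, and promoters from RefSeq.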

Additional observations from a re-analysis of the deposited data

Results flagged for a closer look

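Of 26 groups of 6 or 7 libraries checked for a library far from the rest, 2 held one; chance gives about 1 in 20 such groups. In male OPC, Sqle was 288 CPM in replicate 6, where the next highest male library held 200.2 CPM. In female OPC, Elovl7 was 39.2 CPM in replicate 2, where the next highest female library held 31.0 CPM.

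The sex difference of 2 members differed between classes by a test of the difference itself. For Hmgcs1 it was larger in OPC than in astrocytes by 0.52 on the log2 scale, and for Fads1 it was larger in OPC than in oligodendrocytes by 0.69.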

How the results depend on the processing

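Of 4891 comparisons of a named member with its value under an alternative, 4763 kept the side of the threshold, 30 of them with a sign change between values of which neither was called. A further 76 lost the call, 47 gained it and 5 changed sign with a call in either fit. The 5 arose under scaling by total UMIs alone: Acly gave -0.017 (oligodendrocytes minus newly formed), -0.23 (oligodendrocytes minus OPC), -0.078 (oligodendrocytes minus other classes) and 0.17 (OPC minus other classes), and Elovl7 gave -0.10 (oligodendrocytes minus newly formed). Over all members, named or not, such sign changes numbered 18, all under that scaling; in oligodendrocytes minus OPC, Lss gave -0.24, Elovl5 -0.23 and Fads1 -0.40. The shift of all genes under that scaling, given with the lineage, is part of its construction; for the other changes the cause was not tested.

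Counts of members called moved by over 1.5 times as follows. Newly formed oligodendrocytes against OPC gave 6 higher with all deposited cells, 5 with limma voom, 3 to 5 with 1 library left out (5 without male replicate 6), and 17 lower under total UMIs. Oligodendrocytes against newly formed gave 2 lower with DESeq2, limma voom or no replicate block, 5 under total UMIs, and 1 to 3 with 1 library left out (3 without female replicate 5, 2 without female replicate 7). Oligodendrocytes against OPC gave 13 higher and 16 lower under total UMIs. For the lineage contrasts, the counts of all genes under total UMIs are given with the lineage. Against the other classes, oligodendrocytes gave 3 lower with DESeq2, total UMIs or relative log expression and 2 with all cells or voom; newly formed gave 17 higher and 3 lower under total UMIs and 10 lower with all cells; mural cells gave 1 higher with DESeq2, total UMIs or relative log expression, and 0 to 1 with 1 library left out (1 without female replicate 1 or 5).

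Between the sexes, the 2 members called higher in males became 1 with all cells, 6 with libraries of 9 weeks, and 1 to 7 with 1 library left out (1 without male replicate 1 or 6 or female replicate 6 or 7, and 7 without male replicate 5). Lower in males was Msmo1 in oligodendrocytes, 1 call with libraries of 9 weeks, with no filter, and without male replicate 5, against 0 otherwise. No share of all genes under these alternatives stands beside these counts between the sexes. The correlated pairs, 2 in all libraries, were 1 with sex means removed, 0 within males or within females, and 0 to 4 with 1 library left out (0 without male replicate 3, 4 without female replicate 1, 1 without female replicate 2 or 6). The replicate block left the count between the sexes at 2 higher; same-numbered male and female libraries had correlated deviations of -0.08 to 0.18, so the numbers were not taken to pair the samples. Depth limits the newly formed, mural and endothelial classes, where 21, 4 and 12 members could be tested between the sexes.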

Other observations

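Of the 35 genes of sterol transport and sensing and of fatty acid and myelin lipid metabolism, 18 were higher (37.7% of all genes) and 13 lower (38.3%) in astrocytes than in neurons by edgeR. Cholesterol export was split: Abca1 was higher in astrocytes by 4.08 ± 0.11 on the log2 scale and Abcg1 was lower by -3.63 ± 0.12. Soat1, which esterifies cholesterol, and Nr1h3, a sterol-sensing receptor, were higher by 3.09 ± 0.10 and 3.83 ± 0.34. Of the elongases outside the list, Elovl2, which works on polyunsaturated chains, was higher by 3.63 ± 0.14, and Elovl4, which makes very long chains, was lower by -2.34 ± 0.09. Pgrmc1, a partner of the sterol demethylase CYP51, was lower by -4.01 ± 0.08.

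Along the lineage, Lrp1, a lipoprotein receptor, was lower in newly formed oligodendrocytes than in OPC by -1.97 ± 0.10 and lower in oligodendrocytes than in newly formed oligodendrocytes by -4.20 ± 0.19. Fabp7, a fatty acid carrier, was lower at the same steps by -2.12 ± 0.11 and -3.51 ± 0.17. Fabp5, a related carrier, was higher at the first step by 2.76 ± 0.13. Cers2, which makes very long ceramides, was higher at the first step by 0.69 ± 0.09 and at the second by 2.62 ± 0.07.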
